A study of Mus musculus with 4 samples.

Results

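Cells sense oxygen through the hypoxia-inducible factors (HIFs), and 9 genes of that system were read in 4 single-nucleus RNA libraries of mouse back skin. The genes were chosen by symbol among the 32285 genes listed in the count matrices, and all 9 were found. They are Hif1a and Epas1, which encode oxygen-labile HIF subunits, Egln1 and Egln3, which encode HIF prolyl hydroxylases, and the HIF targets Kdm3a, Bnip3, Ankrd37, Ndrg1 and Adm. The wounded group was 2 wild-type C57BL/6 mice, an inbred strain, aged 8 weeks, whose full-depth excisional back wounds were removed after 1 day. The unwounded group was intact back skin of 2 other wild-type C57BL/6 mice of 8 weeks. Each mouse gave 1 library made from nuclei, no allele was altered in either group, and the comparison asks how transcripts differ in skin 1 day after wounding.

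In cells with ample oxygen, the prolyl hydroxylases mark HIF alpha subunits for destruction by the von Hippel-Lindau ubiquitin ligase. When oxygen falls, the subunits accumulate, pair with ARNT and switch on genes for glycolysis, blood vessel tone, mitochondrial turnover and the hydroxylases themselves. The alpha subunits are controlled mainly as proteins, so their transcripts are not a reading of HIF activity. Skin is a tissue with steep oxygen gradients, and a fresh wound cuts its vessels.

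The 9 genes lie on 6 chromosomes of GRCm38, and lengths are given from gene start to gene end. Whether reads in introns were counted is not given in the sources used here. Epas1 (chromosome 17, 86753700 to 86833410, plus strand) is the longest at 79.7 kb, and Adm (chromosome 7, 110627661 to 110629820, plus strand) is the shortest at 2.16 kb. Hif1a covers 46.2 kb (chromosome 12, 73901375 to 73947530, plus strand) and Kdm3a 44.0 kb (chromosome 6, 71588972 to 71632990, minus strand). Egln1 covers 40.7 kb (chromosome 8, 124908587 to 124949324, minus strand), Ndrg1 40.3 kb (chromosome 15, 66929318 to 66969640, minus strand) and Egln3 24.9 kb (chromosome 12, 54178981 to 54203860, minus strand). Bnip3 covers 18.7 kb (chromosome 7, 138890836 to 138909519, minus strand) and Ankrd37 8.81 kb (chromosome 8, 45996902 to 46005707, minus strand).

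HIF binds DNA at a short core, ACGTG or GCGTG. The core was searched on both strands in the 250 bases before each RefSeq start (GRCm38.p6), counting overlapping matches such as the pair within CACGTG. Entries were found for 7 of the 9 genes, all but Epas1 and Ndrg1, and all 7 genes held at least 1 core at a listed start. Counted by start, 7 of their 9 listed starts held a core, and the Kdm3a starts not shown here held none. The same core was found in 12679 of 32851 promoters (38.6%), so its presence is common. Shown here are the member with the largest fitted rise in wounded skin (Egln3), the one with the largest fall (Kdm3a, at the outermost of its listed starts), a target with 5 matches (Bnip3) and the vasodilator gene Adm, each 5′ to 3′ on the gene's own strand with the cores in capitals (CACGT and CACGC are the core read on the other strand). A match is a string of letters in this window, not a measured binding site.
Egln3 chr12:54203875-54204124 (minus strand): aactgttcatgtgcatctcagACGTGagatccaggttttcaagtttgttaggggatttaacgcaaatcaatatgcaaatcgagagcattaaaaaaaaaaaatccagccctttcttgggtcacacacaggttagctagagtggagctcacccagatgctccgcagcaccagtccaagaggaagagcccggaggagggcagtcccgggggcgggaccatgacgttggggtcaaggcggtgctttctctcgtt
Kdm3a chr6:71632918-71633167 (minus strand): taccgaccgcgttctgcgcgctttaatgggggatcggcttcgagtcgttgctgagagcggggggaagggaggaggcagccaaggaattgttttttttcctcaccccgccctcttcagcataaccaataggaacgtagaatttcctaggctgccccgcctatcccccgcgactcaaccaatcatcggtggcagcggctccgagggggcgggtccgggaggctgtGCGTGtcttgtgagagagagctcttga
Bnip3 chr7:138909507-138909756 (minus strand): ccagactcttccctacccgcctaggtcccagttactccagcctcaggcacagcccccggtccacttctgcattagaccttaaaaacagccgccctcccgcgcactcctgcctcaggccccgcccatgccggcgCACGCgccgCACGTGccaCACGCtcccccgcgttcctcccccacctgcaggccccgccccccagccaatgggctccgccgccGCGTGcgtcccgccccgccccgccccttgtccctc
Adm chr7:110627407-110627656 (plus strand): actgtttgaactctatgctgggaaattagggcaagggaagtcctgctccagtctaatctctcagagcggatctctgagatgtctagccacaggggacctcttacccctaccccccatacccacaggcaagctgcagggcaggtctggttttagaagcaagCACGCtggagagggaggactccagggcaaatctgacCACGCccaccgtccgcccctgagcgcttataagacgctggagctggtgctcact

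Counts in the 2 wounded libraries followed gene length to a degree not seen in the unwounded ones, and this touches every level given here. The wounded libraries held 2297 and 3706 nuclei with 1182709 and 1355002 UMIs (unique molecular identifiers, counted as molecules), and the unwounded libraries held 6575 and 9001 nuclei with 8267547 and 6460708 UMIs. Olfactory and vomeronasal receptor genes, 1420 in number and normally silent in skin, summed to 6890 and 6353 CPM (counts scaled to a library of 1000000 UMIs) in wounded and 93.3 and 132 CPM in unwounded libraries. Scaled from their density per base to the length of every gene, such counts would come to 68.5% and 63.2% of the wounded UMIs and 0.927% and 1.32% of the unwounded UMIs. The nuclear RNA Malat1 made up 0.120% and 0.295% of wounded UMIs, against 9.39% and 8.26% of unwounded UMIs. For each gene the level that its length alone would give at the receptor density is called the length-expected level. A count of 0 allowed up to 2.54 and 2.21 CPM in wounded and 0.363 and 0.464 CPM in unwounded libraries (3 counts, counting error only).

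In the 2 unwounded libraries the 9 genes differed widely in level per kilobase of gene. Kdm3a, which encodes a histone demethylase, was highest at 3.42 and 3.31 CPM per kb. Adm (1.79 and 2.36), Bnip3 (1.84 and 1.42) and Hif1a (1.73 and 1.74 CPM per kb) followed, with Bnip3 overlapping both others and Adm above Hif1a without overlap. Egln1 (0.855 and 0.646) and Ndrg1 (0.732 and 0.534) also overlapped, while Epas1 (0.360 and 0.307), Egln3 (0.185 and 0.212) and Ankrd37 (0.110 and 0.123 CPM per kb) came lower without overlap. This order depends on the length used. Per kilobase of exon, Kdm3a was again highest (18.3 and 17.7 CPM). Adm (2.39 and 3.15) then lay below Bnip3 (15.2 and 11.8), Hif1a (13.5 and 13.7), Egln1 (9.69 and 7.32), Epas1 and Ndrg1. In the 2 wounded libraries the spread was narrower. There, 8 of the 9 genes lay between 0.288 and 1.22 CPM per kb of gene, and Adm, the shortest, reached 2.35 and 1.71. Per kilobase of exon, Egln3 was highest there (11.4 and 11.1 CPM), and Adm had 3.13 and 2.28 CPM.

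Over all nuclei, 1 of the 9 genes rose after wounding and 5 fell. Egln3 rose, while Kdm3a, Bnip3, Hif1a, Ndrg1 and Egln1 fell, Epas1 and Adm did not pass the test, and Ankrd37 had too few counts to be tested. The test was edgeR's quasi-likelihood test on counts summed per library, with Benjamini-Hochberg adjustment over 20915 genes and a threshold of 0.05. It called 84.4% of all genes tested, 47.0% as rising and 37.4% as falling, so 6 calls among the 8 genes tested is near the background share. Marker genes moved in the same libraries: the 9 fibroblast markers summed to 732 and 868 CPM in wounded and 12082 and 12205 CPM in unwounded libraries, the 9 skeletal muscle markers to 520 and 549 CPM in wounded and 6279 and 5239 CPM in unwounded, and the 7 blood endothelial markers to 672 and 669 CPM in wounded and 140 and 169 CPM in unwounded. By length alone, the wounded sums would be 299 and 276 CPM (fibroblast), 404 and 372 CPM (skeletal muscle) and 378 and 349 CPM (blood endothelial). No marker of these lists was at 0 in any library, and their part in the results over all nuclei was not tested. The scaling factors (TMM, trimmed mean of M values) were 1.33 and 1.31 for wounded and 0.782 and 0.732 for unwounded libraries, which puts fitted changes below the ratio of CPM values. Across the genes tested, the median log2 change was 0.39 with these factors and 1.19 with library totals alone, and the split of calls was 9828 higher and 7829 lower with the factors against 11621 higher and 5173 lower with totals. With the length-expected counts subtracted, 74.0% of genes were called (33.0% rose, 41.0% fell), and 1 of the 9 genes rose and 5 fell, among them Ndrg1, for which no wounded count was left. A library is a whole piece of skin, so fewer cells of a type and less RNA per cell cannot be told apart in any of these values.

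Hif1a had 34.7 and 48.0 CPM in wounded libraries, against 79.8 and 80.5 CPM in unwounded libraries. Both wounded libraries were below both unwounded ones. The means were 41.3 ± 9.41 CPM in wounded and 80.2 ± 0.464 CPM in unwounded skin (SD, n = 2 mice each), and the fitted log2 fold change was -1.73 ± 0.19 (SE, edgeR adjusted p = 1.32e-06). Its wounded level was 1.36 and 2.05 times the length-expected level.

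Epas1, which encodes HIF-2 alpha, the subunit prominent in vessel cells, had 57.5 and 59.0 CPM in wounded libraries, against 28.7 and 24.5 CPM in unwounded libraries. Its CPM did not overlap between the groups, but the fitted change of 0.35 ± 0.19 on the log2 scale did not pass (edgeR adjusted p = 0.104). It passed in 5 of the 15 alternatives, all upward, which were library totals alone (1.15, edgeR adjusted p = 5.94e-05), counts thinned to the smallest library (1.05, adjusted p = 0.000304), barcodes with a Malat1 UMI (0.71, adjusted p = 0.0235), RLE factors (0.58, adjusted p = 0.0111) and all deposited barcodes (0.42, adjusted p = 0.0382). The wounded level was 1.31 and 1.46 times the length-expected level, and with the length-expected counts subtracted from every library the change was 0.10 (edgeR adjusted p = 0.770).

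Egln1, the hydroxylase that does most of the marking of HIF in normal oxygen, had 27.9 and 30.3 CPM in wounded and 34.8 and 26.3 CPM in unwounded libraries. These values overlapped. Its fitted log2 fold change of -0.85 ± 0.23 passed (edgeR adjusted p = 0.00300), but with library totals alone it was -0.06 (edgeR adjusted p = 0.837), and DESeq2 gave -0.70 without a call (adjusted p = 0.120). It also did not pass without wounded replicate 1 (-0.61), after thinning (-0.49) or among Malat1-positive barcodes (-0.35). The wounded level was 1.24 and 1.46 times the length-expected level.

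Egln3, a hydroxylase gene that HIF itself induces, had 30.4 and 29.5 CPM in wounded libraries, against 4.60 and 5.26 CPM in unwounded libraries. The mean was 6.08 times higher in wounded skin, with no overlap. The log2 fold change was 1.82 ± 0.30 (SE, edgeR adjusted p = 6.82e-05), and 2.65 with length-expected counts subtracted (edgeR adjusted p = 0.000935). Its wounded counts were 36 and 40, which is 2.22 and 2.34 times the length-expected level (exact Poisson 95% intervals 1.56 to 3.07 and 1.67 to 3.18).

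To place such ratios, they were read in 654 other coding genes spanning 20 kb or more, chosen for a level under 0.2 CPM in each unwounded library and called silent here. Those genes had a median ratio of 0.781 and 0.745, a 95th percentile of 1.90 and 2.04 and a 99th percentile of 2.64 and 2.69 in wounded replicates 1 and 2. Egln3 lay above the 95th and below the 99th percentile in both. Hif1a was above the 95th percentile in replicate 2 only, and Epas1, Egln1, Kdm3a and Ndrg1 were below it in both.

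**Figure D1:**
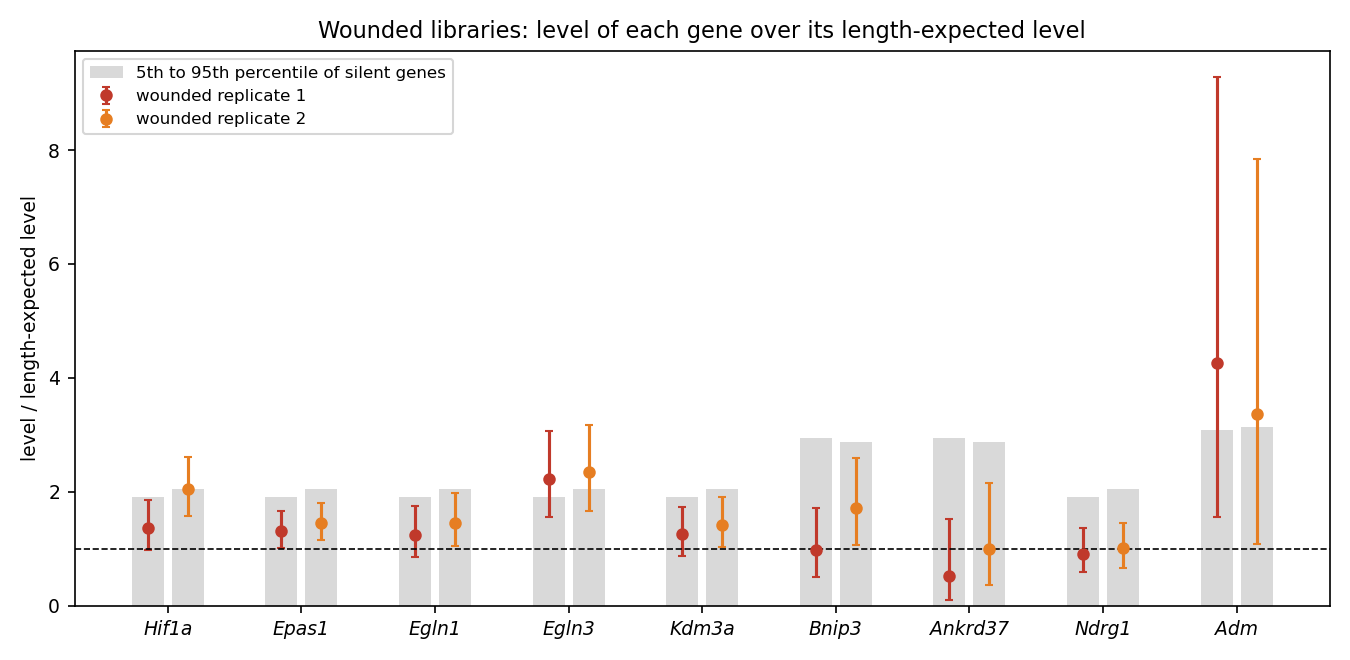
Level of each gene in wounded replicates 1 and 2 divided by its length-expected level, on a linear axis, with exact Poisson 95% intervals. Grey bars span the 5th to 95th percentile of silent genes of similar length (under 5 kb, 5 to 20 kb, at least 20 kb). Egln3 at 2.22 and 2.34 and Adm at 4.26 and 3.36 lie above their bars in both libraries, and Ndrg1 lies close to 1.

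Kdm3a had 30.4 and 31.7 CPM in wounded libraries, against 150 and 145 CPM in unwounded libraries. It was the most abundant of the 9 in unwounded skin, and the mean there was 4.76 times that in wounded skin. The log2 fold change was -3.03 ± 0.17 (SE, edgeR adjusted p = 2.29e-09). The fall passed under all 15 alternatives tried, with library totals alone giving -2.23 and subtraction giving -3.44. What remained in wounded libraries was 1.26 and 1.42 times the length-expected level.

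Bnip3, which encodes a receptor that marks mitochondria for removal, had 10.1 and 16.2 CPM in wounded and 34.4 and 26.6 CPM in unwounded libraries. Both wounded values were below both unwounded ones, with a log2 fold change of -1.97 ± 0.28 (SE, edgeR adjusted p = 1.59e-05). Ndrg1, a stress-responsive gene that hypoxia induces in many cells, had 20.3 and 20.7 CPM in wounded and 29.5 and 21.5 CPM in unwounded libraries. The groups did not overlap, though wounded and unwounded replicate 2 were close, and the fitted change was -1.10 ± 0.25 (edgeR adjusted p = 0.00107). With library totals alone it was -0.30 and did not pass (edgeR adjusted p = 0.304), nor did DESeq2 call it (-0.94, adjusted p = 0.0584) or the fit on thinned counts (-0.57, edgeR adjusted p = 0.0925). Its wounded level was 0.914 and 1.01 times the length-expected level.

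Adm, the precursor of the vasodilator peptide adrenomedullin, had 5.07 and 3.69 CPM in wounded and 3.87 and 5.11 CPM in unwounded libraries. The groups overlapped, and the fitted change of -0.81 ± 0.50 did not pass (edgeR adjusted p = 0.142). With length-expected counts subtracted the value was 0.46 and again did not pass (edgeR adjusted p = 0.504). The wounded libraries held only 6 and 5 Adm counts, which is 4.26 and 3.36 times what so short a gene would give by length, against a 95th percentile of 3.08 and 3.14 among 1440 silent genes of 1 to 5 kb. The exact Poisson 95% intervals of the Adm ratio, 1.56 to 9.28 and 1.09 to 7.85, span that percentile in both libraries. With exon lengths in place of whole-gene lengths the ratio was 2.41 and 1.90 for Adm, 8.80 and 9.26 for Egln3 and 7.92 and 8.82 for Epas1, so the order of the genes by this ratio depends on which length applies. Adm lies wholly within the opposite-strand gene Gm28863, and whether the counting used strand is not given in the sources used here.

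Ankrd37, an ankyrin-repeat gene known as a HIF target, had 3 and 6 counts in wounded libraries and 8 and 7 in unwounded libraries. This is 2.54 and 4.43 CPM in wounded and 0.968 and 1.08 CPM in unwounded skin, and its wounded level was 0.523 and 0.990 times the length-expected level. It overlaps Lrp2bp on the opposite strand over 6.41 kb.

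**Figure D2:**
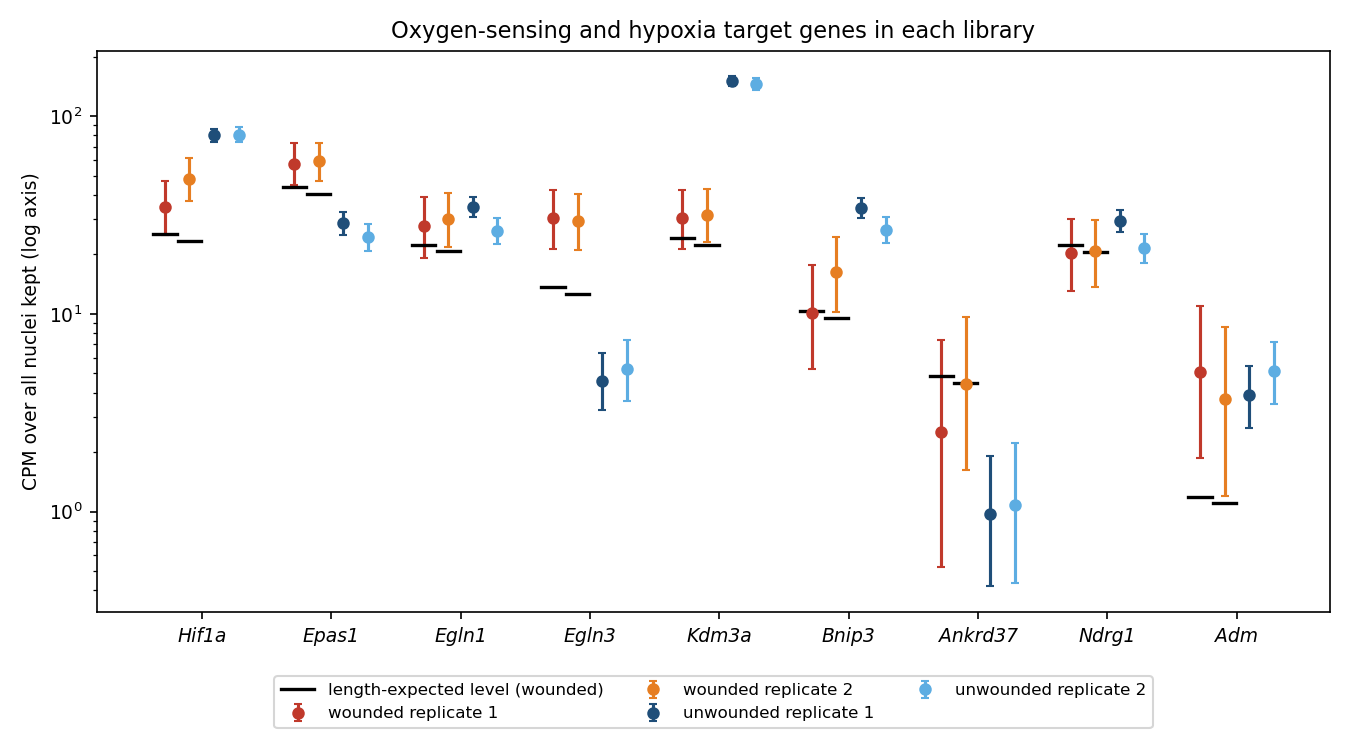
CPM of the 9 genes over all nuclei kept, on a log axis, in wounded replicates 1 and 2 (red, orange) and unwounded replicates 1 and 2 (dark and light blue), with exact Poisson 95% intervals. Black lines mark the length-expected level of the wounded libraries. Kdm3a at 30.4 and 31.7 CPM in wounded libraries sits well below 150 and 145 CPM in unwounded ones, and Egln3 is the clearest rise.

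Other genes of the pathway fell in differing shares by list over all nuclei, where 37.4% of all genes fell, as the strip plot of 6 gene lists shows. Of 14 HIF partners and regulators tested, 1 rose, 10 fell and 3 did not pass, with a median log2 fold change of -1.59 beside 0.39 for all genes (-0.78 beside 1.19 with library totals alone, where 2 rose and 8 fell). With length-expected counts subtracted, where 41.0% of all genes fell, 8 of 13 tested fell and none rose. Their median was then -1.77 beside -0.54 for all genes. Arnt, the partner of both alpha subunits, fell to 38.3 CPM in wounded skin, against 174 CPM in unwounded skin (log2 fold change -2.96 ± 0.16, edgeR adjusted p = 2.06e-09). Egln2, the remaining HIF hydroxylase gene of that family, fell by 3.59 on the log2 scale and the coactivator gene Crebbp by 2.62. Arnt2, a neural paralogue of Arnt, was the gene that rose (log2 fold change 4.41 ± 0.30, edgeR adjusted p = 1.37e-08). Its wounded level of 94.7 and 67.9 CPM was 1.05 and 0.815 times the length-expected level for its 164 kb.

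Of 13 glycolytic targets, 3 rose, 5 fell and 5 did not pass. Their median was -0.38 with scaling factors and 0.43 with library totals alone, beside 0.39 and 1.19 for all genes. Gapdh, a glycolytic dehydrogenase gene, rose to 64.3 CPM in wounded skin, against 12.7 CPM in unwounded skin (log2 fold change 1.56 ± 0.24, edgeR adjusted p = 3.79e-05). It stood at 20.7 and 30.9 times its length-expected level, above any of the 9 genes. Aldoa, the muscle-type aldolase gene, fell by 3.91 on the log2 scale, Pfkfb4 by 1.61 and the hexokinase gene Hk2 by 1.50. A pair of gene identifiers carries the symbol Aldoa, the values are those of ENSMUSG00000030695, and counts may be split between them.

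Of 20 other HIF targets, 3 rose, 15 fell and 2 did not pass, with a median of -1.44 (-0.64 with library totals alone, where 5 rose and 10 fell). With subtraction 4 of 19 tested rose and 10 fell, with a median of -1.29 beside -0.54 for all genes. Vegfa, the vessel growth factor gene, had 11.8 and 16.2 CPM in wounded libraries, against 106 and 105 CPM in unwounded libraries (log2 fold change -3.68 ± 0.21, edgeR adjusted p = 2.77e-09). P4ha2, a collagen prolyl hydroxylase gene, fell by 3.65, the transferrin receptor gene Tfrc by 2.09 and the histone demethylase gene Kdm4c by 1.29 on the log2 scale. A further list held Calcrl, a subunit gene of the adrenomedullin receptor, with the Ramp genes, 4 in all. Of these, Ramp3 rose (2.03 ± 0.52, edgeR adjusted p = 0.00234), Calcrl fell (-1.21 ± 0.16, edgeR adjusted p = 8.85e-06), and Ramp1 (0.43) and Ramp2 (-0.16) did not pass. Ramp3 stood at 0.567 and 1.07 times its length-expected level. Of 8 tested paralogues of the 9 genes, 7 fell and none rose, while with library totals alone 5 fell and 1 rose. With subtraction 5 of 8 fell and none rose, with a median of -1.11 beside -0.54 for all genes. Ndrg2 fell by 4.72 on the log2 scale, the demethylase genes Jmjd1c by 2.59 and Kdm3b by 1.20, and Kdm3b kept 2.39 and 2.66 times its length-expected level.

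**Figure D3:**
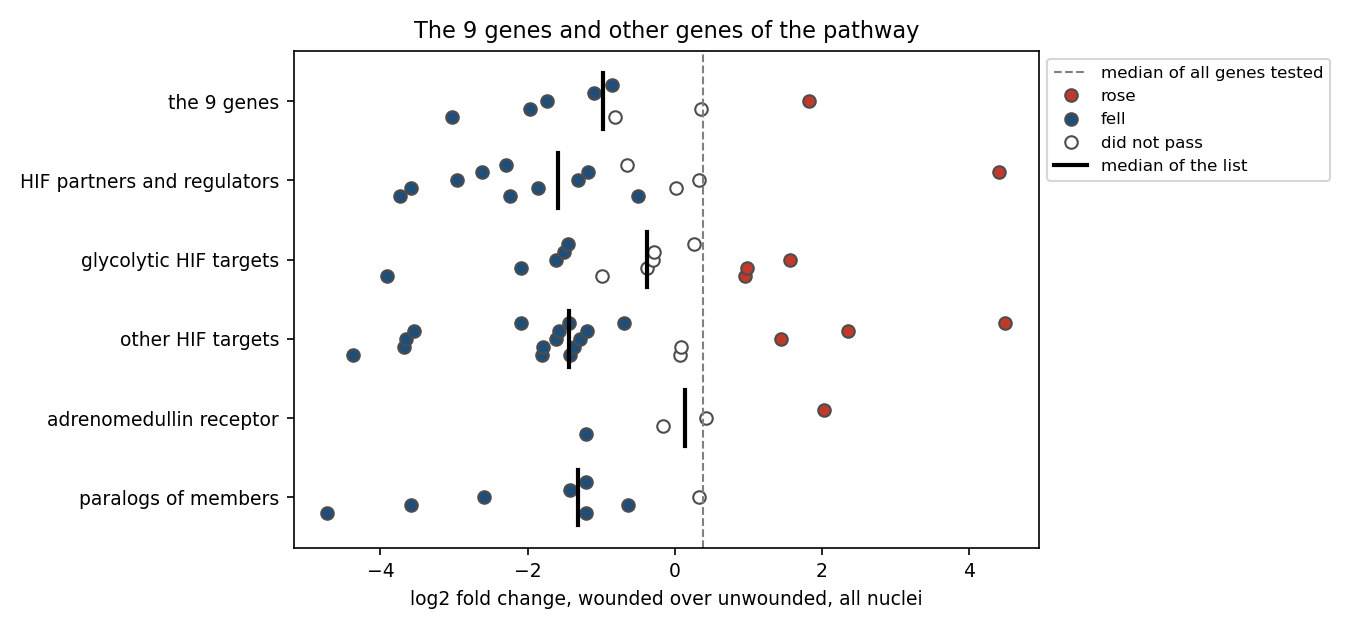
Fitted log2 fold change, wounded over unwounded, of the 9 genes and of the 5 other gene lists over all nuclei. Each point is a gene, filled red where it rose and blue where it fell at an adjusted p under 0.05, black bars are list medians, and the dashed line is the median of all genes, 0.39. The medians of the 9 genes (-0.98), of partners and regulators (-1.59), of other targets (-1.44) and of paralogues (-1.31) lie left of the dashed line. With length-expected counts subtracted (not drawn), these medians were -1.33, -1.77, -1.29 and -1.11, beside -0.54 for all genes.

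To see which cells hold these transcripts, unwounded nuclei were clustered without the 9 genes and clusters were named from marker genes, giving 11 named classes. Levels by class are a description with no test, since clusters are made from the same nuclei. Epas1 showed the sharpest pattern, with 548 and 387 CPM in blood endothelial-like nuclei of unwounded replicates 1 and 2 and 165 and 135 CPM in adipocyte-like nuclei. Both classes stood above all lower ones without overlap. Skeletal muscle-like (65.3 and 31.8), lymphatic endothelial-like (82.8 and 13.7) and sebocyte-like nuclei (37.2 and 30.6 CPM) overlapped. Fibroblast-like nuclei, the most numerous, had 8.12 and 8.77 CPM, and mast-like and smooth muscle and pericyte-like nuclei had no count, which allows up to 45.6 and 136 CPM in the first and 46.6 and 103 CPM in the second.

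Bnip3 was highest in adipocyte-like nuclei at 357 and 162 CPM, then in skeletal muscle-like nuclei at 68.3 and 82.2 CPM. These classes stood apart from each other and from all others, whose means ran from 13.6 to 30.3 CPM with overlap. The adipocyte-like replicates differed more than 2-fold, on 69 and 24 counts.

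Ndrg1 was highest in mast-like (60.8 and 227), blood endothelial-like (172 and 65.9) and lymphatic endothelial-like nuclei (161 and 54.9 CPM). Those classes overlapped one another and lay above all the rest. The lowest were sebocyte-like nuclei at 5.73 and 3.82 CPM and skeletal muscle-like nuclei at 3.04 and 0 CPM. The mast-like values rest on 4 and 5 counts.

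Egln3 was highest in blood endothelial-like (21.5 and 41.2) and lymphatic endothelial-like nuclei (26.1 and 34.3 CPM), followed by keratinocyte-like nuclei at 23.8 and 11.9 CPM. In fibroblast-like nuclei it had 0.609 and 2.82 CPM. The top pair overlapped each other, and lymphatic endothelial-like nuclei stood above keratinocyte-like ones without overlap, on counts of 2 to 10 per library and class.

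Kdm3a was present in every class. It was highest in dermal papilla-like (175 and 178) and fibroblast-like nuclei (179 and 172 CPM), which overlapped, and lowest in skeletal muscle-like nuclei (65.3 and 58.3 CPM), which lay below all others. Hif1a was the most even of the better counted genes, with class means between 52.8 and 99.5 CPM. Only adipocyte-like nuclei, at 51.7 and 53.9 CPM, lay below all other classes by mean, and they stood below the next class, keratinocyte-like nuclei at 78.7 and 54.5 CPM, without overlap. Egln1 class means ran from 23.7 to 83.5 CPM, and every class overlapped its neighbour in the order.

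Adm and Ankrd37 had too few counts to order. Adm had 24 and 18 counts in fibroblast-like nuclei (4.87 and 5.64 CPM), and no other class had more than 1 count in a library. Ankrd37 had at most 4 counts in any class of a library. RNA free in the suspension can place counts in every class, and its part in these levels was not tested.

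**Figure D4:**
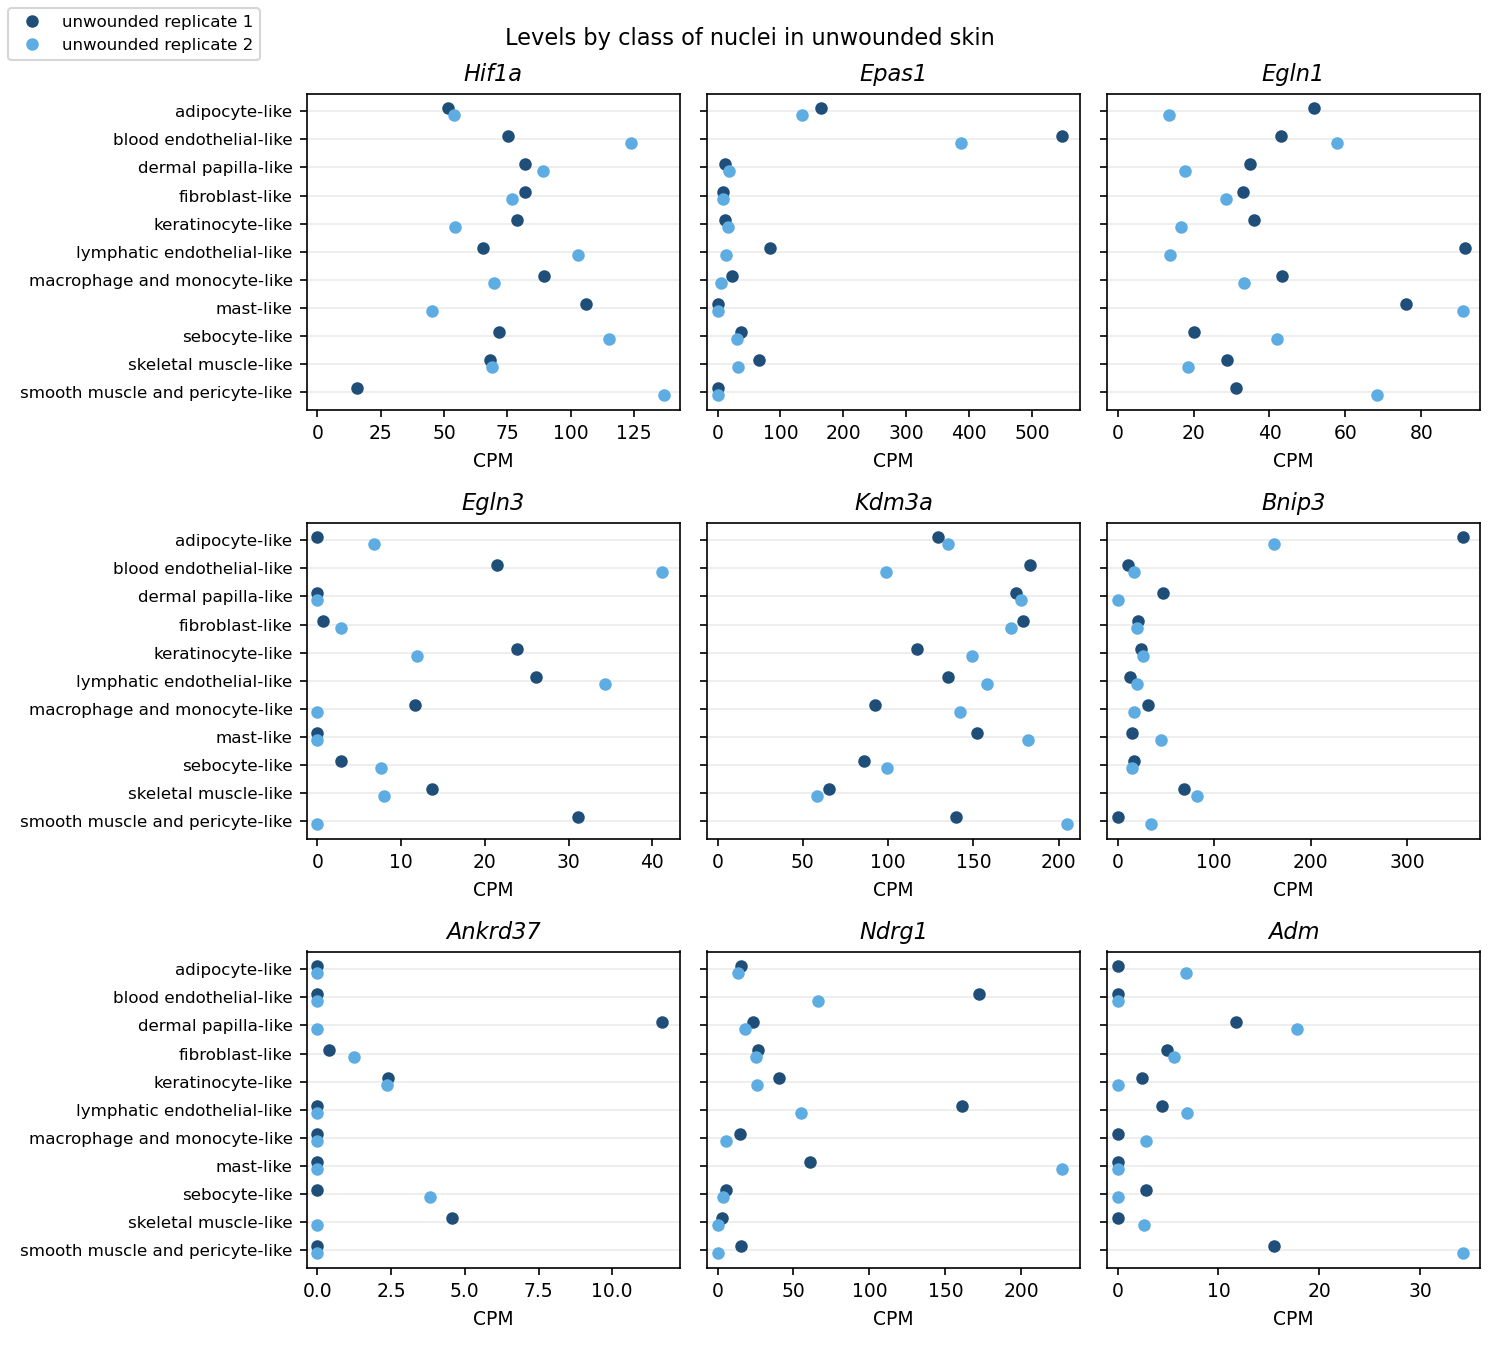
CPM of each gene in the 11 named classes of unwounded nuclei, on linear axes that differ between panels, with 1 point for each of unwounded replicates 1 and 2. Epas1 peaks in blood endothelial-like nuclei (548 and 387 CPM), Bnip3 in adipocyte-like nuclei (357 and 162 CPM), and Kdm3a is found in all classes.

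The genes whose pattern over the 22 class-by-library sums was most like each member's were ranked among 6692 genes by Pearson correlation of log2(CPM + 1), as a description. Epas1 was most like Palmd (0.82), Sema6d (0.80) and Sh3bp5 (0.78). Kdm3a was most like Mill2 (0.88), and Ddr2 (0.81) was also among its nearest genes. Ndrg1 was most like Plekhg1 (0.85), Ctnna1 (0.84) and Ifnar2 (0.83), and Bnip3 was most like Phyhd1 (0.78), Zmym3 and Alg6 (0.75 each). For Hif1a the nearest were Adat1, Glce and Ap4s1 (0.79 each), and for Egln1 they were Rbsn (0.78), C87436 (0.75) and Eif2ak2 (0.71). The sums share libraries and differ in depth.

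Wounded nuclei were clustered apart from unwounded ones, and 3 of the 13 wounded clusters met the rule for a class name, so different clusters hold a class in the 2 groups. Wounded cluster 2 (358 and 696 nuclei) had 7 of 9 fibroblast markers raised, but its 10 leading genes held the pericyte marker Pdgfrb and none of those markers, so it is given by number. Its leading genes Cyp7b1 and Nat8f7 were also leading genes of unwounded fibroblast-like clusters 0 and 3, respectively. Wounded cluster 2 was compared with 3594 and 3564 fibroblast-like nuclei of unwounded clusters 0 to 3, 8, 13 and 16. Col1a1, a fibroblast collagen gene, had 156 and 164 CPM in wounded cluster 2, against 3484 and 4028 CPM in those unwounded clusters. The length-expected share of UMIs was 39.4% and 46.8% in wounded cluster 2, lower than over all wounded nuclei. Wounded cluster 5, keratinocyte-like (157 and 407 nuclei), was compared with 369 and 700 keratinocyte-like nuclei of unwounded clusters 6 and 11, and its length-expected share was 52.8% and 54.0%.

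In wounded cluster 2 against unwounded fibroblast-like nuclei, Epas1 and Egln3 rose, Kdm3a and Hif1a fell, and the other 4 genes tested did not pass. The fit called 60.2% of 13242 genes, 27.9% as rising and 32.3% as falling, so 4 of 8 is below the background share. The split was 3701 higher and 4275 lower, and 4511 higher and 2575 lower with library totals alone. With subtraction 42.0% were called (16.1% rose, 26.0% fell). Of the 7 genes then tested, Epas1 and Adm rose and Kdm3a fell, and Egln3 was not among those tested. Epas1 had 74.7 and 94.6 CPM in wounded cluster 2, against 8.12 and 8.77 CPM in unwounded fibroblast-like nuclei. The mean was 10.0 times higher, with no overlap, on 11 and 23 wounded counts. The log2 fold change was 2.88 ± 0.42 (SE, edgeR adjusted p = 9.75e-08), 3.34 with length-expected counts subtracted (edgeR adjusted p = 3.67e-05), and the wounded level was 2.96 and 3.15 times length-expected. Silent genes of at least 20 kb reached a 95th percentile of 2.72 and 2.14 there and a 99th percentile of 3.81 and 3.54.

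Markers of blood endothelial cells, where Epas1 was highest in unwounded skin, were higher in wounded cluster 2, as were those of other lists. The 7 markers summed to 489 and 551 CPM in wounded cluster 2 (218 and 258 expected by length), against 38.4 and 43.2 CPM in unwounded fibroblast-like nuclei, and none was at 0 in any of the 4 libraries. Pecam1, an endothelial adhesion gene, had 156 and 148 CPM in wounded cluster 2, against 12.0 and 9.71 CPM in unwounded fibroblast-like nuclei. Over all wounded nuclei the blood endothelial sum was 672 and 669 CPM (378 and 349 expected by length). T cell markers summed to 197 and 317 CPM in wounded cluster 2, against 7.30 and 7.52 CPM in unwounded fibroblast-like nuclei. By length alone 173 and 206 CPM were expected for them in wounded cluster 2, and 4 and 1 of the 7 were at 0 there. Neutrophil markers summed to 149 and 185 CPM (21.6 and 25.6 expected by length), against 3.04 and 5.64 CPM. Fibroblast and skeletal muscle sums were lower in wounded cluster 2, and sebocyte and Schwann sums overlapped. The 7 smooth muscle and pericyte markers summed to 1514 and 1357 CPM in wounded cluster 2, against 310 and 313 CPM, with 1 at 0 in each wounded library. Pdgfrb alone among them was raised at least 2-fold over the median of the other wounded clusters. The part of these markers in the Epas1 result was not tested.

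Kdm3a had 54.3 and 49.3 CPM in wounded cluster 2, against 179 and 172 CPM in unwounded fibroblast-like nuclei. The log2 fold change was -2.25 ± 0.30 (edgeR adjusted p = 1.26e-08) and -1.87 with subtraction (edgeR adjusted p = 0.000653). Its direction and call matched those over all nuclei.

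Hif1a had 34.0 and 82.2 CPM in wounded cluster 2, against 82.0 and 76.7 CPM in unwounded fibroblast-like nuclei, so the groups overlapped. Its fitted change of -0.80 ± 0.32 passed (edgeR adjusted p = 0.0282), but without wounded replicate 1 it was -0.23 (edgeR adjusted p = 0.615) and with subtraction -0.30 (edgeR adjusted p = 0.613). Without unwounded replicate 1 or 2 it was -0.67 and -0.74 and did not pass. Egln3 had 20.4 and 12.3 CPM in wounded cluster 2, on 3 counts each, against 0.609 and 2.82 CPM in unwounded fibroblast-like nuclei. Its wounded level was 2.58 and 1.32 times length-expected, below the 95th percentile of silent genes of at least 20 kb there (2.72 and 2.14). Its change of 2.82 ± 0.88 passed (edgeR adjusted p = 0.00523) but not without wounded replicate 1 or 2 (edgeR adjusted p = 0.0823 and 0.0574).

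Adm did not pass in wounded cluster 2, with a change of 1.52 ± 0.71 (edgeR adjusted p = 0.0615). It had 34.0 CPM (exact Poisson 95% interval 11.0 to 79.2) and 12.3 CPM (2.54 to 36.0) in wounded replicates 1 and 2, against 4.87 and 5.64 CPM in unwounded fibroblast-like nuclei. The groups did not overlap, and the wounded level was 49.6 and 15.2 times length-expected, above the 99th percentile of silent genes under 5 kb (19.4 and 11.2). The exact Poisson 95% intervals of that ratio, 16.1 to 116 and 3.13 to 44.3, span the percentile in both libraries. Without wounded replicate 1 the change was 0.96 (edgeR adjusted p = 0.479) and without wounded replicate 2 it was 2.39 and passed (edgeR adjusted p = 0.0381), on 5 and 3 wounded counts. It also passed with subtraction (2.39, edgeR adjusted p = 0.0177), library totals alone (2.09, adjusted p = 0.0136) and RLE factors (1.63, adjusted p = 0.0460), and did not with no filter (1.04, adjusted p = 0.194), at Leiden resolution 0.5 (1.44, adjusted p = 0.0512) or with the replicate block (1.54, adjusted p = 0.0767). Egln1 (-0.60), Bnip3 (-0.49) and Ndrg1 (-0.36) had wounded and unwounded values that overlapped.

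In keratinocyte-like nuclei, 4 of the 9 genes had enough counts to be tested. Epas1 and Egln3 rose, Kdm3a fell, and Hif1a did not pass, where the fit called 49.4% of 6294 genes, 28.4% as rising and 21.0% as falling. With subtraction 38.9% were called (16.9% rose, 22.0% fell), with the same direction and call for these 4 genes. Epas1 had 70.4 and 89.2 CPM in wounded and 11.9 and 16.6 CPM in unwounded keratinocyte-like nuclei, without overlap (log2 fold change 2.69 ± 0.61, edgeR adjusted p = 0.000933). Its wounded level was 2.08 and 2.58 times length-expected, below the 95th percentile of silent genes of at least 20 kb in these nuclei (3.46 and 2.80). The 7 blood endothelial markers summed to 387 and 706 CPM in wounded (292 and 298 expected by length) and 42.9 and 83.0 CPM in unwounded keratinocyte-like nuclei, with 1 marker at 0 in each wounded library, and their part in the Epas1 result was not tested. T cell markers were also higher, at 422 and 468 CPM in wounded and 23.8 and 21.3 CPM in unwounded ones, while skeletal muscle markers were lower. By length alone 232 and 238 CPM were expected for the T cell markers in wounded ones, and 5 and 2 of the 7 were at 0 there. Egln3 had 52.8 and 52.0 CPM in wounded, on 3 and 7 counts, against 23.8 and 11.9 CPM in unwounded keratinocyte-like nuclei. Its change was 1.72 ± 0.67 (edgeR adjusted p = 0.0376), but 1.01 with no filter (edgeR adjusted p = 0.291). The wounded level was 4.99 and 4.81 times length-expected, above the 95th percentile of silent genes (3.46 and 2.80). The exact Poisson 95% intervals of that ratio, 1.03 to 14.6 and 1.94 to 9.92, span the percentile in both libraries. Kdm3a had 35.2 and 14.9 CPM in wounded, on 2 counts each, against 117 and 149 CPM in unwounded keratinocyte-like nuclei, a change of -2.45 ± 0.61 (edgeR adjusted p = 0.00231).

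Those calls depend on wounded replicate 2, without which none of the genes was called in keratinocyte-like nuclei (Epas1 2.38, adjusted p = 0.196, Egln3 1.66, adjusted p = 0.393, Kdm3a -1.80, adjusted p = 0.134, all by edgeR). Egln3 also lost its call without wounded replicate 1 (edgeR adjusted p = 0.113) and was not among the genes kept by the filter without either unwounded replicate. Hif1a had 17.6 and 89.2 CPM in wounded and 78.7 and 54.5 CPM in unwounded keratinocyte-like nuclei. Keratinocyte markers summed to 7320 and 5447 CPM in wounded and 3428 and 3778 CPM in unwounded keratinocyte-like nuclei, while fibroblast markers summed to 581 and 646 CPM in wounded and 5023 and 7343 CPM in unwounded ones.

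**Figure D5:**
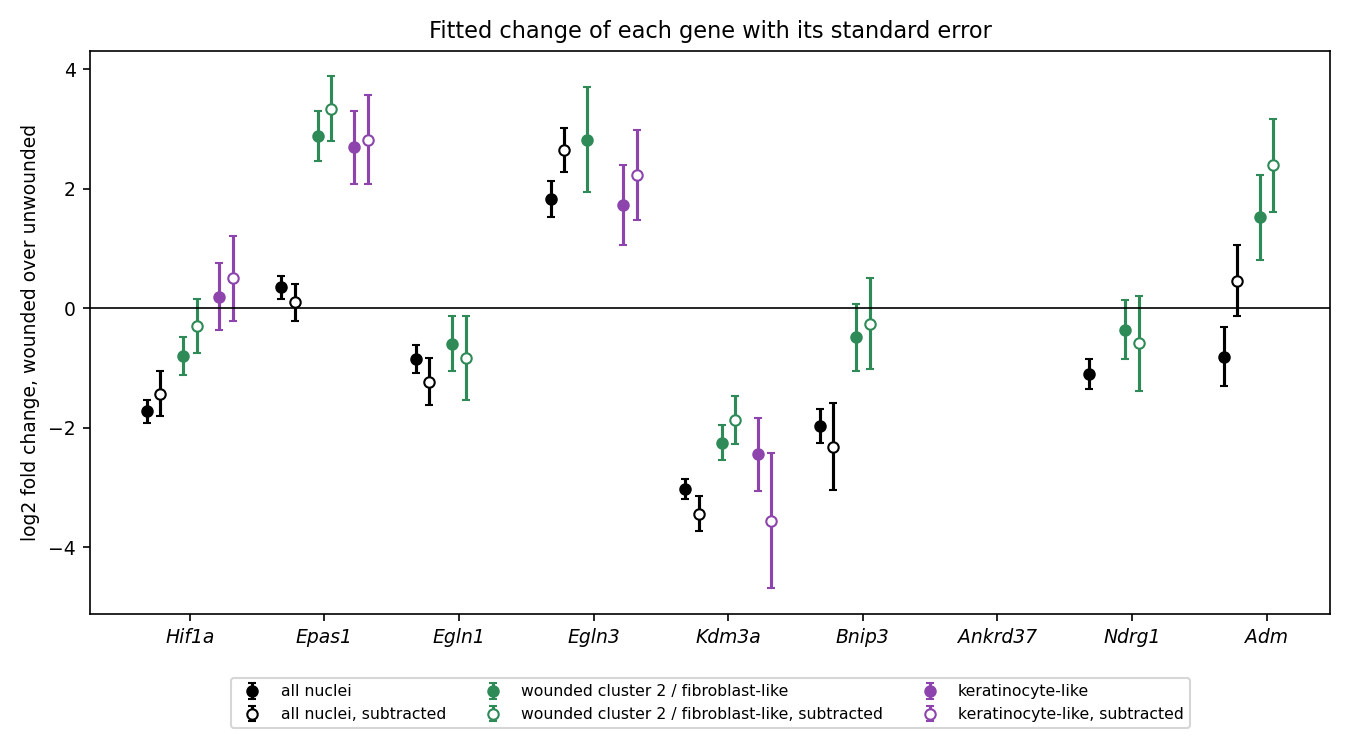
Fitted log2 fold change, wounded over unwounded, with SE, for all nuclei (black), wounded cluster 2 against unwounded fibroblast-like nuclei (green) and keratinocyte-like nuclei (purple). Filled points use counts as deposited and open points have length-expected counts subtracted. Ndrg1 over all nuclei has no open point, since subtraction leaves no wounded count. Epas1 is at 2.88 and 2.69 in the named nuclei and at 0.35 over all nuclei, and Kdm3a is below 0 throughout.

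The wound effects in these sets of nuclei were compared with each other by an interaction term. No gene of the 6 tested differed between wounded cluster 2 against unwounded fibroblast-like nuclei and the keratinocyte-like comparison (edgeR, 0 at an adjusted p under 0.05 and 0 at an unadjusted p under 0.05), where 9.39% of 9427 genes did (4.44% with a higher and 4.94% with a lower effect in the cluster 2 comparison). The difference in log2 fold change was 0.47 ± 0.77 for Epas1, 0.50 ± 0.82 for Kdm3a and -0.62 ± 0.62 for Hif1a. It was 2.47 ± 1.39 for Ndrg1 (edgeR unadjusted p = 0.0745), 1.35 ± 1.08 for Egln3 and -1.22 ± 0.86 for Egln1, so differences of these sizes could not be resolved. In skeletal muscle-like nuclei (32 and 79 wounded, 212 and 251 unwounded) 4 genes were tested and none was called by edgeR, where 27.4% of 3614 genes were (13.8% rose, 13.6% fell), and 2 of the 4 had an unadjusted p under 0.05. Those were Hif1a, with no wounded count against 68.3 and 68.9 CPM in unwounded nuclei (edgeR adjusted p = 0.0831), and Bnip3, with no wounded count against 68.3 and 82.2 CPM (edgeR adjusted p = 0.0764). With subtraction none of 5 genes was called, where 22.6% of genes were (6.86% rose, 15.7% fell). With 12245 and 28859 wounded UMIs in that class, a count of 0 allowed up to 245 and 104 CPM, above both unwounded levels.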

How the data were processed

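Nuclei of 4 skin samples were sequenced as 10x 3' libraries (v3.1 chemistry), as the labels' protocols state. Unnormalized UMI counts for every gene in every barcode were deposited, and the submitters' processing notes name Cell Ranger 5.0.1 and GRCm38. Whether introns or strand were used in counting is not given in the sources used here, nor is the annotation release. Groups and replicate numbers came from the sample titles, and the design text gives each library a mouse of its own. Of 32285 genes, 32158 matched GENCODE vM21 (GRCm38) for coordinates and length.

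A barcode was kept with 200 or more genes and no more than 5% of its counts mitochondrial. Scrublet's automatic threshold marked 0 nuclei in all 4 libraries, so the highest scores were removed at 0.8% per 1000 barcodes (88 and 624 wounded, 388 and 769 unwounded). Median UMIs per nucleus were 358 and 303 in wounded and 907 and 469 in unwounded libraries. Pairs of libraries shared 3 to 25 of the barcodes kept. Replicates differed by more than sampling noise (chi-square per gene 2.14 and 12.5). Intervals are exact Poisson and cover counting error only.

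Counts were summed per library, filtered with filterByExpr, scaled by TMM and tested in edgeR 4.0.16 (R 4.3.3), with DESeq2 1.42.0 as an alternative. On simulated data over 20522 genes for the all-nuclei comparison, 73.0% of genes changed by 1.5 and 94.0% of those changed by 3 on the log2 scale were called. The simulation gave every gene the same fixed dispersion and changed only better counted genes. All other genes had equal means in both groups, with no added length-following counts in the wounded ones. These rates are therefore not the power of the real comparison. Nuclei were clustered in scanpy 1.11.5 separately by group without the 9 genes (2000 variable genes, 30 components, 15 neighbours, Leiden resolution 1). A cluster took a name with at least 3 markers and 40% of a list raised at least 2-fold. Separate clustering, the naming thresholds, the silent-gene classes and the run with library totals alone were chosen after the data were seen. The 9 genes and all lists were chosen with earlier results of these data known. From each list, up to 4 genes of smallest p were named, and Gapdh, Arnt2 and Ramp3 are among these. Markers named in a check of a class and genes overlapping a member were named for that reason. A gene in the ranking by likeness is not reported here.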

Additional observations from a re-analysis of the deposited data

Results flagged for a closer look

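On the strand opposite to Hif1a, Adm, Bnip3 and Ankrd37, 4 genes outside the main comparisons had higher CPM in wounded than in unwounded libraries. Of all genes tested, 47.0% rose with scaling factors, and 11621 of 20915 rose with library totals alone, so a rise is common. Gm2895, which overlaps Ndrg1 by 318 bases, was also higher, at 33.0 and 37.6 CPM in wounded and 0.484 and 1.08 CPM in unwounded libraries (1.37 and 1.69 times length-expected in the wounded ones). Gm17035, within Ndrg1, had no count in any library. Ufsp2, which overlaps Ankrd37 by 57 bases, was lower, at 24.5 and 26.6 CPM in wounded and 42.2 and 44.1 CPM in unwounded libraries. Gm15283, which covers the whole of Hif1a, had 95.5 and 85.6 CPM in wounded and 5.56 and 2.48 CPM in unwounded libraries, which is 1.62 and 1.58 times its length-expected level in the wounded ones. Gm28863, which covers Adm, had 7.61 and 5.90 CPM in wounded and 0.605 and 0.464 CPM in unwounded libraries (1.06 and 0.889 times length-expected in the wounded ones). Gm45507, within Bnip3, had 5.07 and 5.17 CPM in wounded and 0.726 and 1.08 CPM in unwounded libraries, on 6 and 7 counts in each group (2.48 and 2.74 times length-expected). Lrp2bp, which overlaps Ankrd37, had 28.7 and 28.8 CPM in wounded and 1.81 and 3.10 CPM in unwounded libraries (1.73 and 1.88 times length-expected). Whether any of these counts belong to the gene on the other strand was not tested.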

How the results depend on the processing

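Over all nuclei, 4 to 7 of the 9 genes were called under the 15 alternatives, and 5 or 6 when 1 library was left out. Kdm3a, Hif1a, Bnip3 and Egln3 kept their direction in every one of those fits. So did Epas1, Egln1 and Ndrg1, whose calls varied between fits. The cause of each change named here was not tested. For Adm, which was not called, the sign turned with subtraction (0.46) and in barcodes with a Malat1 UMI (0.63). For wounded cluster 2 against fibroblast-like nuclei the count of 4 became 2 at Leiden resolution 2 and ran from 2 to 4 with a library left out. There, uncalled values turned sign for Ndrg1 (-1.24 to 0.24 with a library left out, 0.11 at resolution 2, 0.21 with library totals) and Bnip3 (0.08 with library totals). In keratinocyte-like nuclei the count of 3 ran from 0 to 2 with a library left out, and uncalled Hif1a ran from -1.78 to 0.76 with a library left out and was -0.11 at resolution 2 and -0.54 with no filter. In skeletal muscle-like nuclei the count of 0 became 2 with RLE factors and with no filter and 1 at resolution 2, no fit could be run at resolution 0.5 (19 wounded nuclei), and uncalled Epas1 ran from -0.91 to 0.70 with a wounded library left out and was -0.93 with no filter. The difference between wound effects ran from -0.76 to 0.55 for uncalled Hif1a with a library left out. The median ratio of wounded to length-expected level was 1.35, 1.27 with olfactory genes only and 4.71 with exon lengths in place of whole-gene lengths.

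Replicate numbers are not said to pair mice, and deviations of wounded and unwounded replicate 1 from their group means had a correlation of 0.04. With 2 libraries per group this is a single value, which cannot decide whether same-numbered libraries were handled together. With the replicate block, 6 genes were called over all nuclei, 4 for wounded cluster 2, 0 for skeletal muscle-like and 2 of 3 for keratinocyte-like nuclei, where Egln3 did not pass. The count of all genes called ran from 12128 to 22212, and in the keratinocyte-like fit 1362 to 2977 genes were called with a library left out. Wounded depth limits every class value, since in the named nuclei no gene of the 9 had over 23 counts in a wounded library.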
